A study of Rattus norvegicus with 6 samples.

Results

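The mitochondrial ribosome makes the membrane proteins that mitochondrial DNA encodes, and nearly all of its protein subunits come from nuclear Mrpl and Mrps genes. The members described here are the genes whose symbol is Mrpl or Mrps followed by a number, with at most a letter a, b or c after it, and which had any count: 75 of the 32623 genes in the deposited table, of which 17832 had a count. The rule reads only the name of a gene and whether it was detected. Rat C6 glioma cells, an established glial tumour line with no transgene or edit named in the labels, were treated for 24 h with forskolin (FSK), which activates adenylyl cyclase and so raises cAMP, or with the vehicle DMSO. Each group had 3 libraries of total RNA, DMSO replicates 1 to 3 and FSK replicates 1 to 3, read as paired ends, and the study asked how cAMP signalling alters differentiation of glioma cells. All cells came from this line in serum-containing medium, so the comparison is of 1 line and 1 time point, with no untreated group in the files used.

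Mitochondrial ribosomal proteins are made in the cytosol, imported into the matrix and assembled on mitochondrial ribosomal RNA into a small subunit, which decodes the message, and a large subunit, which joins amino acids. Some have a bacterial homologue and are named with the prefixes u or b in the family nomenclature, while others are specific to mitochondria and carry the prefix m. All 75 members had an assigned role. The large subunit took 48, among them Mrps30 (mL65) and Mrps18a (mL66), whose symbols point to the other subunit. The small subunit took 26. Mrps36 is an adaptor (KGD4) of the 2-oxoglutarate dehydrogenase complex and not a ribosomal subunit, and it is kept because the symbol rule includes it. Another 3 genes are spelled in lower case in the table (mrpl9, mrpl11 and mrpl24) and fall outside the rule. Their values are given separately.

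Library totals ran from 72.1 to 80 M counts. Every member was detected in all 6 libraries, with 138 to 13412 counts per library (median 3120), and all 75 passed the expression filter. The median coefficient of variation of a member within a group was 5.96%. The C6 identity was compared with cell-type markers: all 7 glial markers were detected in every library. Their summed level was 2968 to 3081 CPM (counts relative to library size times TMM factor) in DMSO and 4180 to 4208 in FSK, with 4 higher and 3 lower in FSK and all 7 called. The median of the 7 went the other way, from 60.9 to 62.4 FPKM in DMSO libraries to 34.3 to 37.6 in FSK libraries. Log2 fold changes of these markers ran from -1.38 to 3.46. Neuron markers summed to 9.34 to 11.2 CPM in DMSO and 9.39 to 11.2 in FSK, mostly Gad1, with Rbfox3 at 0. Microglia and macrophage markers summed to 0.502 to 1.49 CPM in DMSO and 5.27 to 5.75 in FSK, of which Cd68 took 0.441 to 0.679 and 4.46 to 5.02, and Ptprc and Itgam were at 0 in all DMSO libraries. Endothelial markers summed to 1.53 to 1.70 CPM in DMSO and 0.552 to 0.996 in FSK, and Cdh5 was at 0 in all libraries. Fibroblast markers summed to 216 to 234 CPM in DMSO and 72.6 to 77.7 in FSK, nearly all of it Col3a1 and Col1a1, with Dcn and Lum at 0 in DMSO. The part of these marker shifts in the values of the ribosomal genes was not tested.

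After 24 h of forskolin 55 of the 75 members did not pass the test, and the changes that passed it were small and went both ways. Of the members, 15 rose, led by Mrps6 and Mrpl34, and 5 fell, led by Mrpl51 and Mrpl43 (edgeR quasi-likelihood test, Benjamini-Hochberg adjusted over 14166 genes, threshold 0.05). Among all tested genes 19.6% rose, 19.8% fell and 39.4% were called in either direction, so the members' 20% of rises was near the background and their 6.67% of falls was below it. In all, 26.7% of members were called. Changes of at least 1.5-fold were made by 7.23% of tested genes upward and 9.94% downward, and among members by 2 upward and 0 downward. The 0 downward also held in DESeq2 and in limma on log2(FPKM + 1), and at an unadjusted edgeR p under 0.05. It did not hold in every setting. Without DMSO replicate 2 Mrpl1 fell by more than 1.5-fold (log2 fold change -0.87, edgeR adjusted p = 0.03). The lowest estimate of Mrpl51 over the other settings, -0.60, was also beyond 1.5-fold. The median log2 fold change (FSK over DMSO) was 0.11 for members and -0.01 for all tested genes, with 51 members above 0 and 24 below. The sizes ran from -0.57 to 0.78, and the median absolute log2 fold change was 0.17 against 0.31 for all tested genes, with a median SE of 0.08 against 0.12. Values of FSK and DMSO did not overlap for 36 members (48%), against 53.0% of all tested genes.

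The number of rises changed when single libraries were left out. Leaving out DMSO replicate 2 or 3 gave 9 or 8 rises, leaving out FSK replicate 1 or 3 gave 9 each time, and leaving out the other two (DMSO replicate 1 and FSK replicate 2) gave 14 and 11. Falls numbered 4 to 6 in these fits. Each fit has 1 library fewer, and over all tested genes rises numbered 2169 to 2667 in them, against 2772 with all libraries. With library totals alone as the scaling, 9 members rose and 8 fell, in place of 15 and 5, as the median of all tested genes moved to -0.08. The 6 rises not called with that scaling were Mrpl36, Mrpl12, Mrpl45, Mrpl46, Mrps25 and Mrps30 (adjusted p = 0.0757, 0.065, 0.052, 0.11, 0.123 and 0.116). In each of the 17 other settings the same 5 rises (Mrps6, Mrpl34, Mrps11, Mrps21 and Mrpl52) and the same 4 falls (Mrpl51, Mrpl43, Mrpl17 and Mrpl58) were called. The members' level shifted between libraries of the same group as well: 58 of 75 lay above their DMSO mean in DMSO replicate 1 and 18 in DMSO replicate 3.

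**Figure D1:**
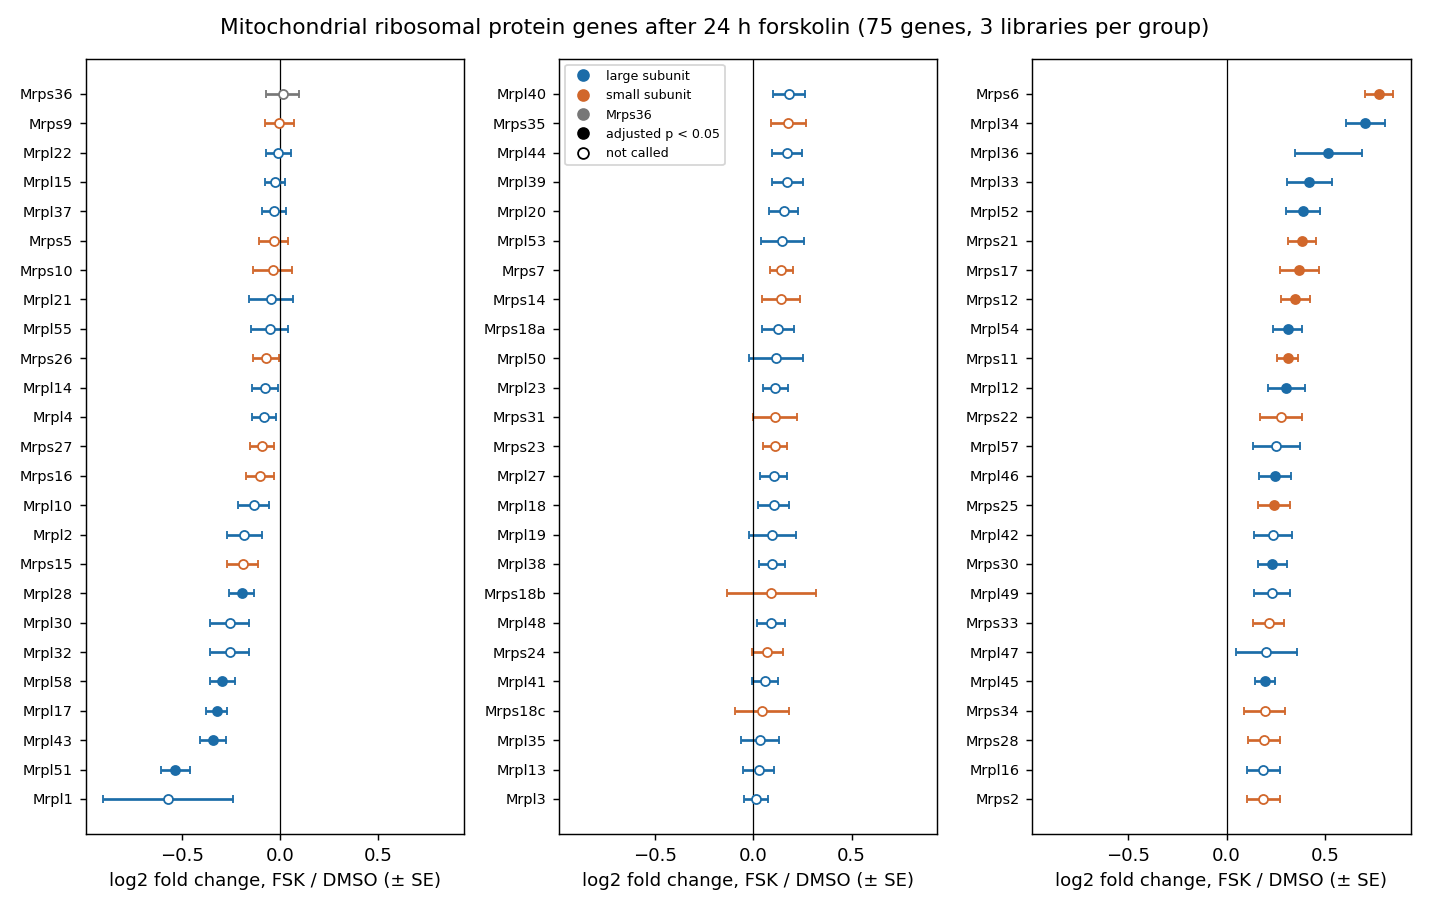
Log2 fold change (FSK over DMSO, ± SE) of each of the 75 members, in order from the lowest at the bottom left to the highest at the top right, coloured by subunit, with filled points for adjusted p below 0.05. The estimates run from -0.57 for Mrpl1, which was not called, to 0.78 for Mrps6, and the 15 rises and 5 falls stand among 55 genes that did not pass.

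The promoters of the members are shown before their values because nuclear genes for mitochondrial proteins are known for binding sites of ETS factors such as GABP (NRF-2), of NRF1 and of YY1, and because cAMP acts in part through CREB, which binds the cAMP response element (CRE). RefSeq windows on build GRCr8, from 250 bases before to 50 after an annotated start, matched 60 of 75 members, and both strands were searched. Only the first window listed for each gene was kept, 27457 of 33469, so other starts of a gene were not searched. Mrps34, Mrps12, Mrpl43, Mrps28, Mrpl19, Mrps24, Mrpl21, Mrps36, Mrps35, Mrpl16, Mrpl35, Mrpl15, Mrps22, Mrpl13 and Mrpl38 were not matched. The ETS letters CCGGAAG stood in 21 of 60 windows (35.0%), against 9.22% of all 27457 windows kept and 17.7% of the 9697 windows of tested genes. The YY1 letters AAGATGGC stood in 15 (25%), against 3.44% of all windows and 5.69% of those of tested genes. The NRF1 letters GCGCATGC stood in 5 (8.33%), against 2.66% and 5.22%. The CRE letters TGACGTCA stood in 1 window, that of Mrpl55 (1.67%), against 1.91% and 3.17%. The E-box letters CACGTG, a site of MYC and other factors, stood in 6 (10.0%), against 6.65% and 9.14%. CRE and E-box read the same on both strands, the letters of GCGCATGC overlap their own reverse complement, and no motif contains another. In all, 35 windows held at least 1 of the 5 motifs.

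By call, ETS letters stood in 4 of 14 windows of members that rose, 1 of 4 of members that fell and 16 of 42 of members not called. YY1 letters stood in 4 of 14, 0 of 4 and 11 of 42. YY1 letters began at a median of 16 bases after the annotated start, and ETS letters at a median of 20 bases before it, written as -20. Shown here are the windows of Mrps6, Mrpl34, Mrpl46, Mrpl51, Mrpl58 and Mrpl17. Mrps6 and Mrpl34 had the largest rises. Mrpl51, Mrpl17 and Mrpl58 had the largest falls among called members with a window. Mrpl17 was also the member with the highest mean FPKM over 6 libraries. On Rnor_6.0 Mrpl46 starts 72 bases from Mrps11. The Mrps11 window kept on GRCr8 held none of the 5 motifs, so the Mrpl46 window is not shown as that of both genes. Capitals mark the motifs: AAGATGGC in Mrps6 and Mrpl46, CCGGAAG in Mrpl58, and GCGCATGC and its overlapping reverse complement in Mrpl17. The windows of Mrpl34 and Mrpl51 held none of the 5. In order, the windows are chr11:44778417-44778716 (plus strand), chr16:18186197-18186496 (plus), chr1:142116981-142117280 (minus), chr4:159677738-159678037 (plus), chr10:101145092-101145391 (plus) and chr1:169575650-169575949 (minus), all on GRCr8.
Mrps6: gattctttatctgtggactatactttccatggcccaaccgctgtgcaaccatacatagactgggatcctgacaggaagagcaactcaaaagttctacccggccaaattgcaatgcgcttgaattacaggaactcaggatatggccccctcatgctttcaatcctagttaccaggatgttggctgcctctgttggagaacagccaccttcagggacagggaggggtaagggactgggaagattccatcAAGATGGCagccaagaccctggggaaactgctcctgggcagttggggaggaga
Mrpl34: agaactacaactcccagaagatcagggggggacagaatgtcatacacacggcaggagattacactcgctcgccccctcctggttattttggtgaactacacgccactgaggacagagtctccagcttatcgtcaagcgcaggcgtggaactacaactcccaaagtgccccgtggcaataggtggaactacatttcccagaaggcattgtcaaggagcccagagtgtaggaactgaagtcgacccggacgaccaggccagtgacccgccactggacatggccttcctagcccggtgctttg
Mrpl46: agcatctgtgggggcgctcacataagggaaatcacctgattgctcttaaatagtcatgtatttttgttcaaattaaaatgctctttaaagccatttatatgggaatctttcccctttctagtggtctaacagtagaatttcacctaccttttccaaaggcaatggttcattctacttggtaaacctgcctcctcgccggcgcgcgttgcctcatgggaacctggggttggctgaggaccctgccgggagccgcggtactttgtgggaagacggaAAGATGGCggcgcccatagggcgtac
Mrpl51: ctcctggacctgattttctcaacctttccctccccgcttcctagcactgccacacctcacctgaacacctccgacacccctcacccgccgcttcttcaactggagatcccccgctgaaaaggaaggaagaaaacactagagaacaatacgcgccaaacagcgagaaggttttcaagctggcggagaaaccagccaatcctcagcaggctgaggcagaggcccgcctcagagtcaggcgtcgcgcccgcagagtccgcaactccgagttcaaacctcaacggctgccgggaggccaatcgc
Mrpl58: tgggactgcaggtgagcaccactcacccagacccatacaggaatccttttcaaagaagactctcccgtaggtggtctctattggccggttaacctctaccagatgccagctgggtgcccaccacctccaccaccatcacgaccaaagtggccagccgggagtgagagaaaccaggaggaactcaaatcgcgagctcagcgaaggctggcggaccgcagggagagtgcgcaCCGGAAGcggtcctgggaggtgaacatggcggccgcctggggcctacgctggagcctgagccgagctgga
Mrpl17: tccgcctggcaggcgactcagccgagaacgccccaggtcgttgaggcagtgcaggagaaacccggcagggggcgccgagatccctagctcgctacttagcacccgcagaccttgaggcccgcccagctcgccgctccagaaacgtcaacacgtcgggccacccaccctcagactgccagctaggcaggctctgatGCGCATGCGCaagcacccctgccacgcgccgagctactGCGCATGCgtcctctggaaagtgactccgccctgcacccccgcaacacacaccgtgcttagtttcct

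Mrps6 (bS6m), which sits on the platform of the small subunit, had the largest rise. On Rnor_6.0, the build of the deposited positions, it lies on chromosome 11 from 32211115 to 32263899 on the plus strand. Its level was 81.4, 74.8 and 69.1 CPM in DMSO replicates 1 to 3 and 123, 133 and 130 in FSK replicates 1 to 3. Every FSK library was above every DMSO library, and the gap was larger than the spread within either group. The log2 fold change was 0.78 ± 0.07 (SE; 1.72-fold; edgeR adjusted p = 0.000106). RefSeq places a protein-coding gene, Slc5a3, inside the span of Mrps6. Slc5a3 is not analysed here, and whether its reads entered the Mrps6 count was not tested.

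Mrpl34 (bL34m), a small protein of the large subunit, was the other member to rise at least 1.5-fold. It lies on chromosome 16 from 19874034 to 19874768 on the plus strand of Rnor_6.0. DMSO libraries gave 12.7, 11.9 and 11.6 CPM and FSK libraries 20.5, 17.9 and 20.7. The groups stood well apart, although FSK replicate 2 was the lowest of its group. The log2 fold change was 0.71 ± 0.10 (1.63-fold; edgeR adjusted p = 0.00097).

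The next largest rises were smaller than 1.5-fold. Mrpl52 (mL52), a mitochondria-specific protein of the large subunit, gave 36.8, 32.8 and 32.0 CPM in DMSO and 44.9, 40.7 and 47.6 in FSK, a log2 fold change of 0.39 ± 0.09 (edgeR adjusted p = 0.00857). Mrps21 (bS21m), a small-subunit protein with a bacterial homologue, gave 47.6, 44.6 and 41.9 in DMSO and 61.4, 57.5 and 56.3 in FSK (0.38 ± 0.07, adjusted p = 0.00326). In both genes all FSK libraries lay above all DMSO libraries. Mrps12 (uS12m), the protein of the decoding centre, rose from 54.6, 50.8 and 45.4 CPM to 64.4, 63.5 and 64.5 (0.35 ± 0.07, edgeR adjusted p = 0.00692). The FSK libraries of Mrps12 were close together and the DMSO libraries spread more widely, without overlap. Mrps11 (uS11m), a platform protein of the small subunit chosen after its values were seen, rose from 44.5, 46.8 and 44.4 CPM to 56.0, 55.8 and 56.6 (0.31 ± 0.06, edgeR adjusted p = 0.00312). Its FSK libraries lay close together, above all DMSO libraries.

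Other rises were not called in some fits with 1 library left out. Mrpl36 (bL36m) was the member with the fewest counts among those that rose, at 4.40, 5.78 and 4.68 CPM in DMSO and 8.33, 6.67 and 6.28 in FSK. The groups did not overlap, but the gap between DMSO replicate 2 and FSK replicate 3 was small. Its log2 fold change was 0.52 ± 0.17 (edgeR adjusted p = 0.043), and the adjusted p was 0.117 and 0.116 with DMSO replicates 1 and 3 left out in turn, and 0.132, 0.0801 and 0.0528 for FSK replicates 1, 2 and 3. Mrpl33 (bL33m) went from 20.4, 19.0 and 19.4 CPM to 28.7, 22.0 and 28.2 (0.42 ± 0.12, edgeR adjusted p = 0.0215). FSK replicate 2 lay near the DMSO values. Without DMSO replicates 2 or 3 the adjusted p of Mrpl33 was 0.0735 and 0.0583, and without FSK replicates 1 or 3 it was 0.0647 and 0.0736. Mrps17 (uS17m) went from 42.7, 36.2 and 36.0 CPM to 55.0, 47.4 and 46.2 (0.37 ± 0.10, edgeR adjusted p = 0.0177), with replicate 1 the highest of each group. Leaving out DMSO replicate 2 or 3 or FSK replicate 1 gave it an adjusted p of 0.067, 0.0653 and 0.0577.

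The smallest rises were of 0.20 to 0.31 on the log2 scale. Mrps25 (mS25), of the small subunit and chosen after its values were seen, went from 39.4, 43.3 and 40.4 CPM to 51.5, 44.0 and 50.2 (0.24 ± 0.08, edgeR adjusted p = 0.0421). FSK replicate 2 of Mrps25 was just above DMSO replicate 2, and the adjusted p was 0.0886, 0.0588 and 0.0926 without DMSO replicates 1, 2 and 3 and 0.127 and 0.118 without FSK replicates 1 and 3. Mrps30 (mL65), a large-subunit protein despite its symbol, went from 29.5, 29.3 and 28.7 CPM to 36.3, 32.3 and 34.2 (0.23 ± 0.07, edgeR adjusted p = 0.0387). Its groups did not overlap, yet the call was lost whichever of the 6 libraries was left out, with adjusted p from 0.0508 to 0.11. Mrpl54 (mL54), of the large subunit and chosen after its values were seen, went from 63.1, 59.4 and 54.5 CPM to 75.5, 68.1 and 75.9, without overlap (0.31 ± 0.07, edgeR adjusted p = 0.0118).

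Mrpl51 (mL51), a mitochondria-specific protein of the large subunit, had the largest fall that passed the test. It lies on chromosome 4 from 157705790 to 157708748 on the plus strand of Rnor_6.0. DMSO libraries gave 34.0, 35.1 and 34.5 CPM and FSK libraries 25.1, 23.1 and 23.4. The values within each group lay close together, with a wide gap between groups. The log2 fold change was -0.54 ± 0.07 (edgeR adjusted p = 0.000876). Mrpl43 (mL43), another mitochondria-specific large-subunit protein, lies on chromosome 1 from 264755538 to 264756546 on the minus strand. Its level was 72.1, 69.8 and 63.3 CPM in DMSO and 52.7, 53.1 and 56.1 in FSK. It fell by 0.34 ± 0.07 on the log2 scale (edgeR adjusted p = 0.0048), and the groups did not overlap. On the opposite strand it overlaps Twnk, the helicase of mitochondrial DNA, which rose by 0.67 ± 0.08 (edgeR adjusted p = 0.000473). Because the strand rule of the counting is not given, reads of the pair cannot be told apart where they overlap.

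Mrpl17 (bL17m), a protein at the polypeptide exit tunnel, lies on chromosome 1 from 170652294 to 170653920 on the minus strand. It had the highest level of all members in DMSO and in the mean FPKM over 6 libraries. In FSK Mrpl12 was higher in mean CPM (139 against 133) and Mrps6 in mean FPKM (175 against 135). Mrpl17 gave 175, 164 and 160 CPM in DMSO and 135, 131 and 132 in FSK. All FSK libraries lay below all DMSO libraries, and the log2 fold change was -0.32 ± 0.05 (edgeR adjusted p = 0.00188). Mrpl58 (mL62, also known as ICT1), which releases peptides from stalled mitochondrial ribosomes and sits in the central protuberance, lies on chromosome 10 from 103956019 to 103962515 on the plus strand. Its level was 49.0, 46.8 and 47.2 CPM in DMSO and 40.6, 39.0 and 37.1 in FSK, without overlap (log2 fold change -0.29 ± 0.06, edgeR adjusted p = 0.00787). Mrpl28 (bL28m) had the smallest fall, from 104, 99.2 and 93.4 CPM to 81.7, 86.5 and 90.7 (-0.19 ± 0.06, edgeR adjusted p = 0.0418). DMSO replicate 3 and FSK replicate 3 of Mrpl28 were close. Its adjusted p was 0.129 and 0.119 without DMSO replicates 1 and 2, and 0.0953, 0.11 and 0.0517 without FSK replicates 1, 2 and 3.

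**Figure D2:**
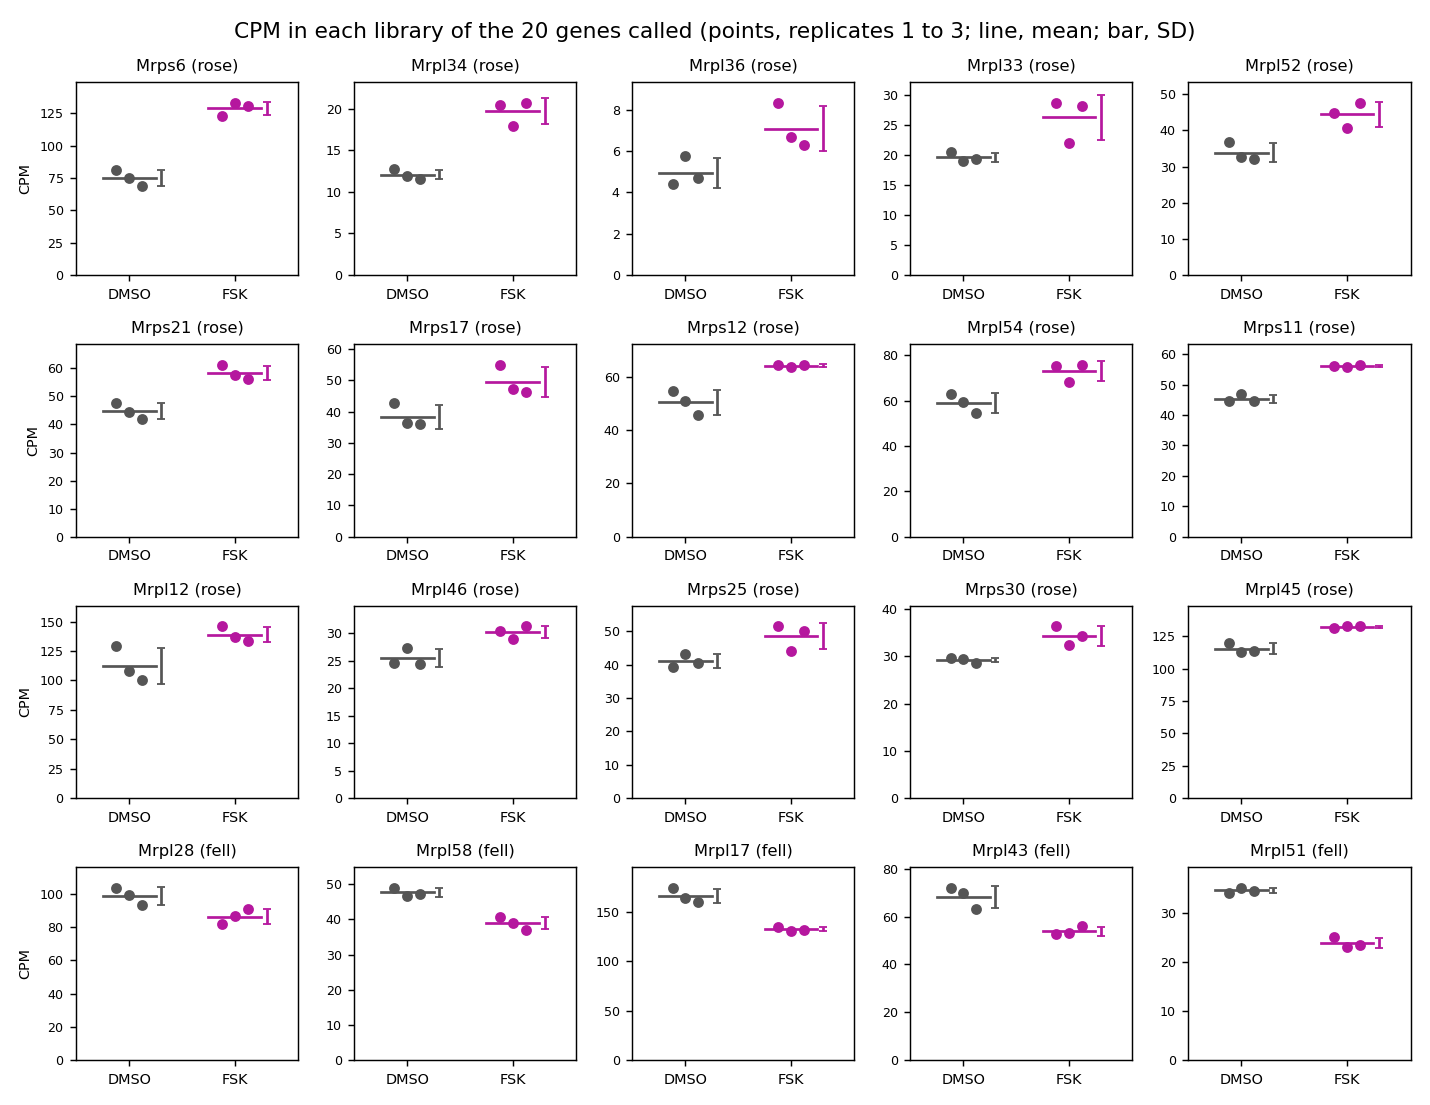
CPM in each library of the 20 called members, with points for replicates 1 to 3 from left to right, a line for the mean and a bar for ± SD; each vertical axis starts at 0. Mrps6 (75.1 CPM in DMSO and 129 in FSK) and Mrpl34 (12.1 and 19.7) stand widest apart among the rises and Mrpl51 (34.6 and 23.9) among the falls. In all 20, which were called on these same values, the groups do not overlap, as in 53.0% of all tested genes.

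Large and small subunit genes were compared by their counts and their summed level. Of the 48 large-subunit genes 9 rose and 5 fell, with a median log2 fold change of 0.10. Leaving out DMSO replicate 2 or 3 gave 5 or 4 rises in the large subunit, and leaving out FSK replicate 1, 2 or 3 gave 5, 4 and 4. With library totals alone 4 rose and 7 fell (median 0.033), with the length trend removed 5 rose and 6 fell (0.029), and limma on log2(FPKM + 1) called 6 rises and 8 falls. Without DMSO replicate 3 the median was 0.064. Of the 26 small-subunit genes 6 rose and 0 fell, with a median of 0.14. In edgeR 1 small-subunit gene was lower at an unadjusted p under 0.05. DESeq2 called 0 falls there and limma on log2(FPKM + 1) 3, and with library totals alone 5 rose and 1 fell (median 0.075). With the length trend removed 5 rose and 1 fell (0.101). Leaving out DMSO replicate 2, DMSO replicate 3 or FSK replicate 1 gave 4 rises in the small subunit. It had 1 fall without DMSO replicate 3 and among genes with a mean FPKM of at least 5. Summed over the small subunit, the level was 1125, 1087 and 1014 CPM in DMSO and 1225, 1214 and 1227 in FSK. Every FSK library was above every DMSO library. Within this sum the mean of Mrps6 alone went from 75.1 to 129 CPM, and whether Slc5a3 reads entered its count was not tested. Summed over the large subunit, it was 2332, 2216 and 2122 CPM in DMSO and 2284, 2240 and 2287 in FSK, and the groups overlapped. Over all members the sum was 3498, 3340 and 3177 CPM in DMSO and 3553, 3493 and 3551 in FSK, where FSK replicate 2 lay just below DMSO replicate 1. As a share of all counts, without TMM scaling, the members took 0.353, 0.341 and 0.331% in DMSO and 0.351, 0.342 and 0.342% in FSK, with overlap. These sums are descriptions, and the difference between subunits was not tested. Each value is a share of the library, so fewer cells with a transcript and less RNA per cell cannot be told apart, nor can a change in total RNA per cell.

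The 43 members with a bacterial homologue had 9 rises and 2 falls and the 31 mitochondria-specific members 6 rises and 3 falls. Their median log2 fold changes were 0.04 and 0.17, and the first turned negative with library totals, with limma and with the length trend removed (-0.03 to -0.01). The homologues had 5 falls with library totals and 8, 7 and 8 falls beside 8 rises in limma at pseudocounts of 0.1, 1 and 5, and 1 fall with DMSO replicate 1 or any FSK library left out. Rises among the homologues numbered 5 with DMSO replicate 3 or FSK replicate 1 left out, and among the mitochondria-specific genes 3 with DMSO replicate 2, DMSO replicate 3 or FSK replicate 3 left out. The difference between both groups was not tested.

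Members at the sites of the large subunit were few, and their calls went both ways. At the stalk, where translation factors are recruited, Mrpl12 (bL12m) gave 129, 108 and 100 CPM in DMSO and 146, 137 and 134 in FSK. DMSO replicate 1 lay just under the lowest FSK library. The log2 fold change of Mrpl12 was 0.30 ± 0.09 (edgeR adjusted p = 0.0341), and the adjusted p was 0.11 and 0.114 without DMSO replicates 2 and 3 and 0.0943, 0.0805 and 0.0608 without FSK replicates 1, 2 and 3. Mrpl10 (uL10m), which anchors the stalk, had 86.04, 81.2 and 71.8 CPM in DMSO and 67.8, 73.8 and 76.3 in FSK, with overlap (-0.13 ± 0.08, adjusted p = 0.22).

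At the exit tunnel, through which the new protein leaves toward the inner membrane, Mrpl17 fell and Mrpl45 rose. Mrpl45 (mL45), which holds the ribosome to the inner membrane, gave 120, 113 and 114 CPM in DMSO and 132, 133 and 133 in FSK. The FSK values lay close together above all DMSO values (0.20 ± 0.05, edgeR adjusted p = 0.0154). Without DMSO replicate 2 the adjusted p of Mrpl45 was 0.0777 and without FSK replicate 2 it was 0.0568. Mrpl22, Mrpl23 and Mrpl47, the others of the site, had log2 fold changes of -0.01 ± 0.07, 0.11 ± 0.06 and 0.20 ± 0.16 and did not pass (adjusted p = 0.934, 0.194 and 0.344).

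The central protuberance, which contacts the small subunit and transfer RNA, held 8 members, of which Mrpl58 fell and Mrpl46 rose. Mrpl46 (mL46) went from 24.6, 27.3 and 24.4 CPM to 30.4, 29.0 and 31.2 (0.25 ± 0.08, edgeR adjusted p = 0.0428). The groups did not overlap, though DMSO replicate 2 came near FSK replicate 2. Its adjusted p was 0.0818 and 0.0906 without DMSO replicates 1 and 3 and 0.0868, 0.0714 and 0.113 without FSK replicates 1, 2 and 3. The other 6 (Mrpl18, Mrpl27, Mrpl38, Mrpl40, Mrpl48 and Mrpl55) had log2 fold changes from -0.05 for Mrpl55 to 0.18 for Mrpl40, and adjusted p from 0.112 for Mrpl40 to 0.69 for Mrpl55. Mrps18a (mL66), of the large subunit, stood at 0.13 ± 0.08 (adjusted p = 0.248) and Mrps36 at 0.01 ± 0.09 (adjusted p = 0.92).

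The members' levels relative to transcript length were compared in FPKM, the deposited values normalised for length and depth. The mean over 6 libraries ran from 2.58 to 157 FPKM with a median of 34.4, and the order of members was almost the same in both groups (Spearman rho 0.984 over 75 genes, a description, since all values come from the same libraries). In the large subunit Mrpl17 (157 FPKM), Mrpl28 (117) and Mrpl20 (108) were highest. In DMSO these were 178 ± 5.28, 127 ± 4.64 and 105 ± 8.15 FPKM (SD, n = 3), so they differed by more than their spread. In FSK, at 135 ± 3.43, 106 ± 4.27 and 111 ± 2.35, Mrpl28 and Mrpl20 lay within their spread of each other. Mrpl20 was not called (0.16 ± 0.07, adjusted p = 0.127), although without DMSO replicate 1 it was (adjusted p = 0.0406). In the small subunit Mrps6 (141 FPKM), Mrps12 (77.3) and Mrps21 (76.8) were highest, the last pair at nearly equal means.

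At the low end of the large subunit stood Mrpl1, Mrpl47 and Mrpl30, and of the small subunit Mrps2, Mrps35 and Mrps31. Mrpl1 (uL1m, a protein of the mobile stalk beside the exit site for transfer RNA) had 3.83, 1.69 and 3.94 FPKM in DMSO and 2.42, 1.67 and 1.97 in FSK. DMSO replicate 2 lay among the FSK values. Mrpl1 therefore had the lowest estimate of all members without passing the test (-0.57 ± 0.33, adjusted p = 0.207), and without DMSO replicate 2 it did pass (adjusted p = 0.03). Mrpl30 (uL30m) had 5.93 ± 0.48 FPKM in DMSO and 4.73 ± 0.33 in FSK, and its difference in counts missed the threshold (-0.26 ± 0.10, adjusted p = 0.0754). It passed with library totals alone (adjusted p = 0.0365) and among genes with a mean FPKM of at least 5 (0.0441). Mrpl47 (uL29m) had 4.21 ± 0.78 and 4.62 ± 0.42 FPKM. Mrps2, Mrps35 and Mrps31 had means of 9.90, 10.6 and 10.6 FPKM and log2 fold changes of 0.11 to 0.19, none called. Mrps18b (mS40), chosen after its values were seen, was the most variable of the well-detected members, with 52.1, 75.6 and 38.2 CPM in DMSO and 48.5, 62.1 and 66.3 in FSK (0.09 ± 0.23, adjusted p = 0.782).

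**Figure D3:**
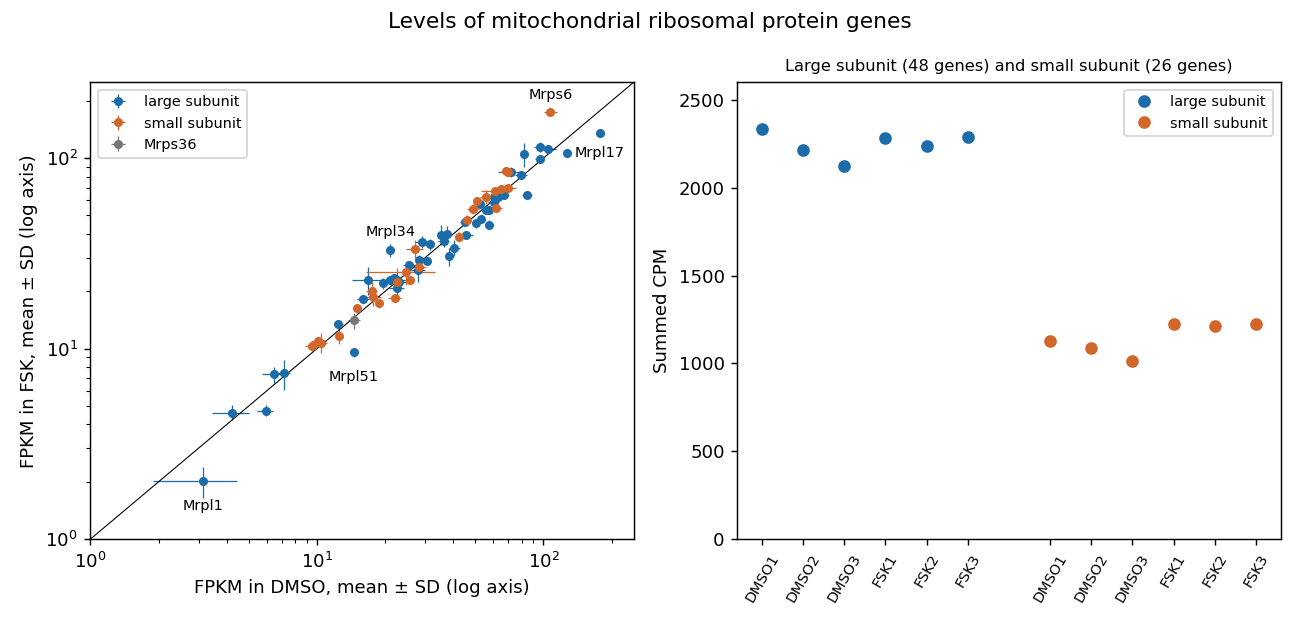
Left, mean FPKM of each member in FSK against DMSO on log axes, with SD bars over 3 libraries and the line of equal levels. Right, summed CPM of the large and small subunit genes in each library, from an axis starting at 0: the small subunit runs from 1014 to 1125 in DMSO and from 1214 to 1227 in FSK, and the large subunit overlaps between groups.

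Members have short transcripts. The transcript length implied by count, FPKM and library total had a median of 1139 bases, against 2302 for all tested genes. Short transcripts had a higher median log2 fold change and fewer falls in this comparison. Among the 2054 tested genes under 1000 bases 365 rose (17.8%) and 147 fell (7.16%), with a median log2 fold change of 0.14. Over all tested genes 19.6% rose and 19.8% fell, and over all members 20% and 6.67%. The 34 members under 1000 bases had 9 rises (26.5%) and 4 falls (11.8%) and a median of 0.11. Spearman's rho between length and log2 fold change was -0.24 over the members and -0.18 over all tested genes, both descriptions across genes of the same libraries. With a per-library length trend removed, 10 members rose, 7 fell and the median was 0.061. The 5 rises not called then were Mrpl33, Mrpl36, Mrpl46, Mrps25 and Mrps30 (adjusted p = 0.198, 0.176, 0.0613, 0.161 and 0.0529). The part of transcript length in the members' median was not tested further.

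Some members start close to a neighbouring gene on the other strand or overlap it. Mrps11 and Mrpl46 start 72 bases apart on opposite strands of chromosome 1, and both rose (0.31 ± 0.06 and 0.25 ± 0.08). Mrps12 starts 16 bases from Sars2, the mitochondrial seryl-tRNA synthetase, which stood at 0.24 ± 0.09 and did not pass (adjusted p = 0.072). In all, 16 members had such a divergent neighbour within 1000 bases. Other pairs went in opposite directions. Mrpl2 stood at -0.18 ± 0.09 (edgeR adjusted p = 0.141) beside Klc4, which rose by 0.36 ± 0.10 (0.0209). Mrps34 stood at 0.19 ± 0.10 (0.173) beside Eme2 at -0.29 ± 0.10 (0.0522). Whether divergent pairs change together was not tested. A set of 10, Mrpl47 and Mrpl49 among both, overlapped a gene on the opposite strand, and of these Mrpl43 was the 1 called member. Without these 10, 15 members rose and 4 fell of 65. Overlap was sought only among deposited genes with a count. Slc5a3 is not among them, so Mrps6 stays among these 15 rises.

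Genes with other names but related roles were described by lists, to be read beside the 19.6% of rises and 19.8% of falls over all tested genes. Of the mitoribosomal proteins with other symbols, Dap3 (mS29), a GTP-binding small-subunit protein, rose from 70.7, 69.2 and 63.2 CPM to 84.2, 77.6 and 83.0, without overlap (0.27 ± 0.06, edgeR adjusted p = 0.0115). Ptcd3, Chchd1 and Gadd45gip1 were not called. Of the lower-case symbols mrpl24 (uL24m) rose from 24.2 to 37.8 CPM on average (0.64 ± 0.09, edgeR adjusted p = 0.000804). The other two, mrpl9 and mrpl11, stood at 0.11 ± 0.06 and -0.02 ± 0.11 and did not pass (adjusted p = 0.181 and 0.905).

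Of 29 assembly factors and ribosomal RNA modifiers tested 8 rose (27.6%) and 1 fell (3.45%), with a median log2 fold change of 0.09 and a highest of 0.58. C1qbp, a matrix protein needed for mitochondrial translation, went from 186, 172 and 158 CPM to 251, 258 and 264, well apart (0.58 ± 0.07, edgeR adjusted p = 0.000296). Mrm1, a methyltransferase of the large ribosomal RNA, rose by 0.58 ± 0.13 (edgeR adjusted p = 0.00923). Ybey, an endonuclease of small-subunit maturation, rose by 0.58 ± 0.20 (adjusted p = 0.0478), and its call was lost without DMSO replicates 2 or 3 (adjusted p = 0.147 and 0.14) or FSK replicates 1, 2 or 3 (0.0657, 0.14 and 0.109). Tfb1m, which dimethylates the small-subunit ribosomal RNA, fell from 12.7, 12.6 and 13.7 CPM to 9.91, 7.10 and 7.72, without overlap (-0.65 ± 0.14, edgeR adjusted p = 0.00754). The count of rises was 5 without DMSO replicate 2 or 3 or FSK replicate 2, and 4 without FSK replicate 3.

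Few translation factors and transfer RNA synthetases were called, 6.67% and 19.05% against 39.4% of all tested genes. Of 15 translation factors only Mtif3, an initiation factor, rose (0.40 ± 0.11, edgeR adjusted p = 0.0184), a call lost without DMSO replicates 2 or 3 or FSK replicate 3 (adjusted p = 0.068, 0.0614 and 0.0628). In edgeR with all libraries 0 of the 15 fell and 2 were lower at an unadjusted p under 0.05, and DESeq2 called 0 falls. Without DMSO replicate 2 or FSK replicate 1 edgeR called 1 fall, as it did with the length trend removed, and limma on log2(FPKM + 1) and edgeR with library totals alone each called 2. The list's median log2 fold change was -0.18, and it was -0.02 among genes with a mean FPKM of at least 5. Of 21 rows for aminoacyl-tRNA synthetases and charging enzymes, in which Gatc has 2 identifiers, 3 rose and 1 fell, with a median of 0.08. Mars2 (0.51 ± 0.17), Cars2 (0.38 ± 0.11) and Gatc (0.33 ± 0.09) rose (edgeR adjusted p = 0.0447, 0.0267 and 0.0198). The list had 1 rise with any DMSO library or FSK replicate 2 left out. These 3 calls were lost in some fits without 1 library: Mars2 whichever library was left out (adjusted p from 0.0771 to 0.139), Cars2 without DMSO replicates 1 or 3 or FSK replicates 1 or 2 (0.0709, 0.0818, 0.056 and 0.0896), and Gatc without DMSO replicate 2 or FSK replicates 1 or 2 (0.0682, 0.0518 and 0.0819).

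Mitochondrially encoded messenger RNAs, the templates of this ribosome, were higher after forskolin. Of 13, 10 rose (76.9%) and 0 fell, with a median log2 fold change of 0.31. At an unadjusted edgeR p under 0.05 0 fell, and DESeq2 and limma on log2(FPKM + 1) called 12 and 5 rises and 0 falls. Mt-cyb, the cytochrome b of complex III, went from 3140, 3123 and 3219 CPM to 4310, 4319 and 4515, without overlap (0.47 ± 0.04, edgeR adjusted p = 7.11e-05). Mt-nd1, of complex I, rose by 0.40 ± 0.05 and Mt-co2 and Mt-co3, of complex IV, by 0.36 ± 0.06 and 0.33 ± 0.06 (edgeR adjusted p = 0.000583, 0.00165 and 0.00347). Summed over the 13, the level was 26590 to 28770 CPM in DMSO and 33760 to 36060 in FSK. With the length trend removed 6 of the 13 rose. The cytosolic ribosomal protein genes, matched by symbol, had 47 rises (57.3%, against 19.6% of all tested genes) and 0 falls of 82 tested (median 0.22). In this set 0 were lower at an unadjusted edgeR p under 0.05, with 0 falls in DESeq2 and 1 in limma on log2(FPKM + 1). Its median transcript length was 628 bases, and the part of length in its rises was not tested. The difference of the cytosolic from the mitochondrial set was not tested.

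In transcription and RNA processing of mitochondria 4 of 21 rose (19.05%) and 1 fell (4.76%). The share of rises was near the 19.6% of all tested genes. The list's median of 0.13 was 0.068 without FSK replicate 1 and 0.037 among genes with a mean FPKM of at least 5. Elac2, which cuts transfer RNA ends, rose by 0.46 ± 0.07 and Tbrg4, an RNA-binding protein of the FASTK family, by 0.38 ± 0.08 (edgeR adjusted p = 0.00176 and 0.0054). Fastkd3 of the same family rose by 0.42 ± 0.11 (adjusted p = 0.0171), with 0.0601 without FSK replicate 3, and Fastk itself fell by 0.51 ± 0.07 (adjusted p = 0.00104). Without FSK replicate 3 the list had 2 rises, and without DMSO replicate 2 or FSK replicate 1 it had 2 falls. In maintenance of mitochondrial DNA 2 of 11 rose (18.18%, also near that of all tested genes). They were Twnk and Polg2, the accessory subunit of the polymerase (0.63 ± 0.16, edgeR adjusted p = 0.0149, with 0.0603 without DMSO replicate 2 and 0.0664 without FSK replicate 2). Rrm2b, which supplies nucleotides, fell by 0.94 ± 0.22 (adjusted p = 0.0102), and the list's median was 0.11.

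Regulators of mitochondrial biogenesis had 4 rises (28.6%) and 3 falls (21.4%) of 14 tested, with a median of -0.19. Myc went from 34.7, 35.5 and 34.3 CPM to 84.3, 82.4 and 81.0, well apart (1.25 ± 0.05, edgeR adjusted p = 2.28e-06). Prkaa1, a catalytic subunit of AMPK, fell by 0.88 ± 0.11 (adjusted p = 0.000497). Gabpa, the ETS subunit of GABP, had 20.04, 22.1 and 31.9 CPM in DMSO and 18.5, 16.9 and 15.2 in FSK, with DMSO replicate 3 far above the rest (-0.55 ± 0.18, edgeR adjusted p = 0.0383). It was not called without DMSO replicates 2 or 3 (adjusted p = 0.0511 and 0.0783) or FSK replicates 1, 2 or 3 (0.0572, 0.102 and 0.124). Nrf1 went from 49.0, 52.9 and 45.9 CPM to 39.0, 45.3 and 39.5 (-0.26 ± 0.08, edgeR adjusted p = 0.0431), with the groups nearly touching. Its adjusted p was 0.0687 and 0.152 without DMSO replicates 1 and 2 and 0.126 and 0.128 without FSK replicates 1 and 3, and 0.117 with the length trend removed. Tfam, which packages and transcribes mitochondrial DNA, did not pass (-0.14 ± 0.10, adjusted p = 0.32). Ppargc1a (PGC-1α) had 0 counts in all libraries but FSK replicate 2, with 4, and was not tested. Perm1 was called on few reads: DMSO libraries held 4, 0 and 0 counts and FSK libraries 26, 11 and 19 (edgeR adjusted p = 0.0436), a call lost with each library but DMSO replicate 1 left out (0.0834 to 0.134). Without DMSO replicate 2, FSK replicate 1 or FSK replicate 3 the list had 1 fall, and without FSK replicate 3 it had 2 rises.

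Of 18 genes of protein import and mitochondrial proteases 1 rose (5.56%) and 3 fell (16.7%), with a median of -0.03 that turned to 0.02 without FSK replicate 3. Rises numbered 3 without DMSO replicate 1, 2 without FSK replicate 2 and 0 without any other library. Pmpca, which cuts the targeting sequence from imported proteins, went from 114, 114 and 106 CPM to 76.4, 78.8 and 85.9, without overlap (-0.47 ± 0.07, edgeR adjusted p = 0.000882). Spg7 and Afg3l2, subunits of the m-AAA protease, which matures the ribosomal protein encoded by Mrpl32, fell by 0.29 ± 0.07 and 0.20 ± 0.05 (edgeR adjusted p = 0.0115 and 0.0172). Both calls were lost with the length trend removed (adjusted p = 0.107 for Spg7 and 0.0519 for Afg3l2). The call of Afg3l2 was also lost with the replicate block (0.0615) and without DMSO replicate 1 (0.0588), FSK replicate 2 (0.0598) or FSK replicate 3 (0.0792). Mrpl32 itself had 29.9, 28.6 and 29.9 CPM in DMSO and 25.3, 21.6 and 27.1 in FSK. Its groups did not overlap, and it missed the threshold (-0.26 ± 0.10, adjusted p = 0.0704; chosen after its values were seen). It was called as a fall in 8 of the 17 other settings, DESeq2, library totals, limma and the removed length trend among them. Tomm40, the outer membrane import channel, rose by 0.21 ± 0.06 (adjusted p = 0.0318), and was not called without DMSO replicates 2 or 3 (0.0822 and 0.0984) or FSK replicates 1 or 3 (0.0655 and 0.102).

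**Figure D4:**
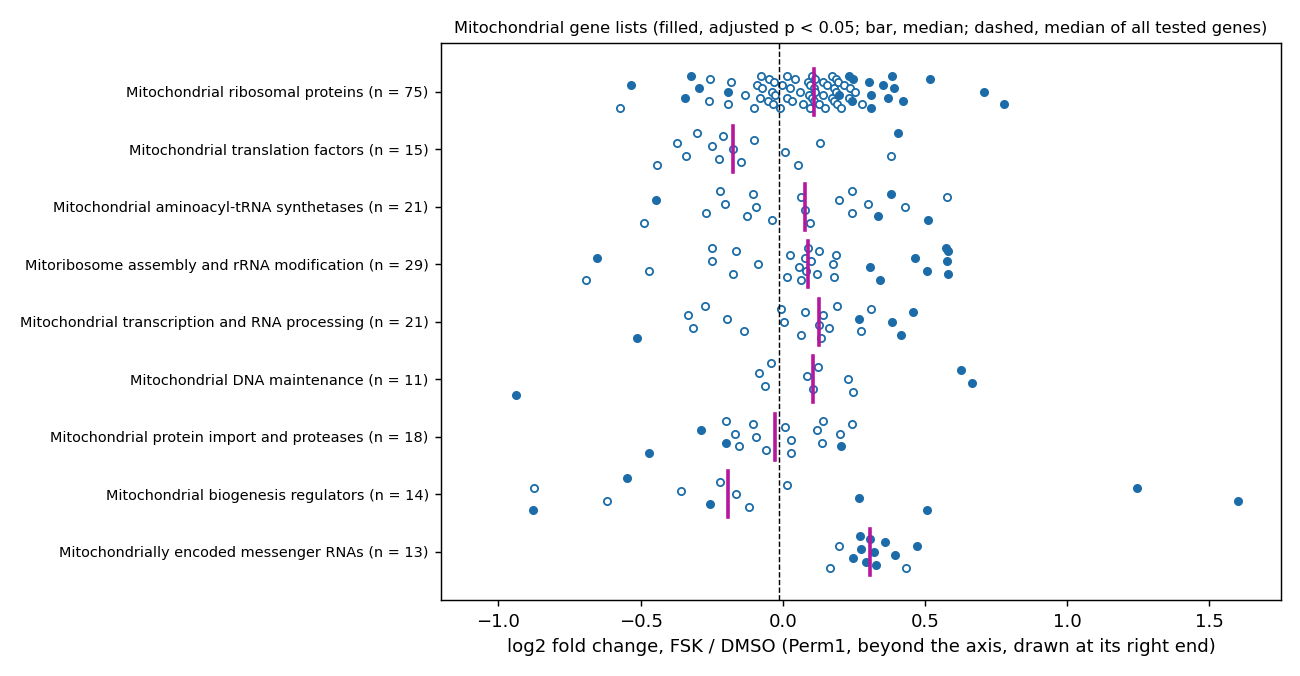
Log2 fold change (FSK over DMSO) of each tested gene of the members and of 8 mitochondrial lists, with filled points for adjusted p below 0.05, a bar for each list's median and a dashed line for the median of all tested genes. The members' median of 0.11 lies between those of the translation factors (-0.18) and the mitochondrially encoded messenger RNAs (0.31), with members called on both sides of 0.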

How the data were processed

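Total RNA of 6 libraries was sequenced. Cutadapt, HISAT2, StringTie, edgeR and DESeq2 and the build Rnor_6.0 are named, without versions or roles, in the submitters' processing notes. The authors deposited, per the file headers, whole-number counts and FPKM values per gene. For the counting unit (read or pair), strand rule and annotation, nothing was given in the sources used here. FPKM is 0.0001 where the count is 0.

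The main test was edgeR 4.0.16 in R 4.3.3 (TMM, default filter, quasi-likelihood fit, FSK against DMSO, Benjamini-Hochberg over 14166 genes). SE is taken from the F statistic, and CPM values are means ± SD over 3 libraries. Levels between genes use the deposited FPKM. The biological coefficient of variation was 20.8%. No label says that the libraries are separate cultures, so the p-values speak only of the spread from library to library, possibly a technical one. That spread exceeded counting noise (chi-square of 30.8 to 56.7 for each degree of freedom). Members and lists were chosen with earlier results of these data known. Named genes are the 8 largest rises and 8 largest falls among called members, the 3 highest and lowest of each subunit, the members at the sites described, up to 4 called genes of each list, and Ppargc1a, Nrf1, Gabpa, Tfam and Myc. List symbols not matched, 8 of 192, are not analysed here, apart from Fastkd4, another name of the listed Tbrg4. Results of some other listed genes, and of the oligodendrocyte marker list, are not reported here. Other settings were DESeq2 1.42.0, limma 3.58.1 on log2 FPKM with pseudocounts of 0.1, 1 and 5, other scalings and filters, a length trend removed, replicate as a block, and leaving libraries out 1 at a time.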

Additional observations from a re-analysis of the deposited data

How the results depend on the processing

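Across the 17 other settings the members' median log2 fold change stayed positive. It was 0.042 with library totals as the only scaling, 0.061 with the length trend removed, 0.064 with that and the replicate block, and 0.038, 0.037 and 0.036 in limma on log2(FPKM + 0.1), log2(FPKM + 1) and log2(FPKM + 5). With library totals 9 members rose and 8 fell, and with limma 11 rose and 12, 11 and 11 fell at those pseudocounts. Among genes with a mean FPKM of at least 5, 15 rose and 8 fell. Leaving out 1 library gave 8 to 14 rises. The median of the bacterial homologues turned negative: -0.022 with library totals, -0.009 with the length trend removed, -0.009 with the block as well, and -0.032, -0.031 and -0.027 in limma. The median of all tested genes was -0.080 with library totals and -0.077 and -0.055 in limma at pseudocounts of 0.1 and 1, a shift under 0.1 in every setting. All tested genes split into 2271 rises and 3419 falls with library totals, against 2772 and 2804.

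Same-numbered libraries did not deviate together (correlations -0.0407, 0.0177 and -0.0354 over 14166 genes), so the numbers were not taken to pair them. With the replicate block 10 members rose and 4 fell (2160 and 2165 of all genes), and with the length trend removed too 7 rose and 6 fell, with Mrps12 (adjusted p = 0.0524) and Mrpl54 (0.118) among the calls lost. The causes of these differences were not tested. Depth was no limit for detecting members, but those with few counts, Mrpl1 and Mrpl36, had the widest errors of the large-subunit genes.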
